A study of Arabidopsis thaliana with 4 samples.

Results

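The 10 genes described here encode the enzymes that turn nitrate into amino acids in *Arabidopsis* shoots, and they were taken by gene identifier from the 23281 features of the deposited Nanopore expression table. They are *NIA1* and *NIA2* (nitrate reductase), *NIR1* (nitrite reductase), *GS2*, *GLN1;1*, *GLN1;2* and *GLN1;3* (glutamine synthetase), *GLU1* and *GLT1* (glutamate synthase) and *ASN1* (asparagine synthetase), and all 10 are listed. The study sequenced cDNA from aboveground parts of wild-type Col-0 plants at the end of rosette growth, in order to compare the PacBio and Nanopore platforms. PCR-amplified cDNA was read on the Nanopore instrument (ONT Pc) in 3 replicate libraries, CK1, CK2 and CK3, and 1 library was read on PacBio. All plants had the same genotype and no treatment, were kept at 23 °C by day and 18 °C by night with 16 h of light and 8 h of darkness, and were watered in turn with distilled water and a dilute Murashige-Skoog nutrient solution. Each replicate pooled the shoots of several plants, so a level is an average over all their tissues, and fewer cells of a type and less RNA per cell cannot be told apart.

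Nitrate that reaches the leaf is reduced to nitrite by nitrate reductase in the cytosol, with electrons from NADH, and nitrite is reduced to ammonium by nitrite reductase in the plastid, with electrons from ferredoxin. Glutamine synthetase then joins ammonium to glutamate, and glutamate synthase passes the amide group of glutamine to 2-oxoglutarate, so that each turn of the cycle yields glutamate. The plastid enzymes GS2 and GLU1 also recapture the ammonium that photorespiration releases, whereas the cytosolic GLN1 enzymes are known for work in the vasculature and in nitrogen remobilisation. Asparagine synthetase moves the amide group of glutamine to aspartate, and asparagine is a main form in which nitrogen is transported.

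Several of these enzymes are encoded by close relatives, so the coding sequences were compared first, because reads of near-identical genes can be assigned to the wrong copy. All sequences and positions are from RefSeq TAIR10.1, in which all 10 identifiers were found. *NIA1* and *NIA2* were identical at 72.9% of 2724 aligned coding bases. The 60 coding bases at which this pair is hardest to tell apart are shown here, each written 5′ to 3′ on the coding strand, with capitals at the positions that differ.
NIA1: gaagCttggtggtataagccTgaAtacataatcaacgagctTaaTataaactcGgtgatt
NIA2: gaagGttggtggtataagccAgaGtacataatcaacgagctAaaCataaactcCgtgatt
Even in this stretch 6 positions differed, and the longest run of identical bases in the full coding sequences was 20. The *NIA1* stretch spans an intron on the minus strand of chromosome 1 between 29238180 and 29238317, and the *NIA2* stretch spans an intron on the plus strand of chromosome 1 between 14159658 and 14159903.

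The glutamine synthetases were closer to each other. *GLN1;1* and *GLN1;2* were identical at 87.4% of 1071 aligned coding bases, with a longest identical run of 44 bases. *GLN1;3* was identical to *GLN1;1* at 79.3% and to *GLN1;2* at 78.7%, and *GS2* was identical to the 3 cytosolic genes at 70.5% to 72.0%. The stretch in which all 4 genes are most alike is given below in the same form, with capitals at the 15 of 60 positions that are not the same in every gene.
GS2: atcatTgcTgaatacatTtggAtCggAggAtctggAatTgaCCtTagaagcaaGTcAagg
GLN1;1: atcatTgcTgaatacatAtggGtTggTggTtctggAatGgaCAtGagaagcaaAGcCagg
GLN1;2: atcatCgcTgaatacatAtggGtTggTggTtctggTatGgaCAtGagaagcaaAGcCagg
GLN1;3: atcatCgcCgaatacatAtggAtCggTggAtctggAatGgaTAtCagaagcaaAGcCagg
Within it, *GLN1;1* and *GLN1;2* differed at only 2 positions, *GLN1;3* differed from either at 7, and *GS2* differed from the cytosolic genes at 11 to 13. The stretch starts at coding base 229 of *GS2* (chromosome 5, plus strand, 13831448 to 13831507, within 1 exon) and at coding base 55 of the cytosolic genes. In these it spans an intron, on the minus strand of chromosome 5 in *GLN1;1* (14935135 to 14935602), on the minus strand of chromosome 1 in *GLN1;2* (24657232 to 24657466), and on the plus strand of chromosome 3 in *GLN1;3* (6097557 to 6097876). The counting could have divided reads of this closest pair between the wrong copies, so the separate values of *GLN1;1* and *GLN1;2* are uncertain to that extent. *GLU1* and *GLT1* were identical at only 56.0% of their aligned coding bases.

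The libraries held 8122432 reads in CK1, 7386184 in CK2 and 6835029 in CK3, and the levels below are CPM, a gene's reads scaled to 1000000 reads of its own library. The detection limit, set at 3 reads, was 0.369 to 0.439 CPM. The 5 leaf markers, such as *RBCS1A*, were detected in every library and summed to 47823 to 55342 CPM. Of 5 root markers, 3 were not among the listed features and *IRT1* had no read, which allows up to 0.439 CPM. The root marker *PYK10*, a beta-glucosidase gene, had 17.7 ± 0.392 CPM (SD, n = 3). The 4 flower markers summed to at most 3.79 CPM. The phloem marker *SUC2*, a sucrose transporter gene, was at 71.7 ± 8.73 CPM (SD, n = 3). CK3 stood apart in genes of the circadian clock. The 12 clock genes examined summed to 301 CPM in CK1, 339 CPM in CK2 and 1114 CPM in CK3, of which *GRP7*, a clock-regulated RNA-binding protein gene, made up 100.1, 138 and 828 CPM. Of the 12, 6 were higher and 3 lower in CK3 than in both other libraries by more than 1.5-fold, and of the 6, *ELF4* and *FKF1* reached the minimum of 60 reads only through CK3. The clock list was chosen with earlier results of these data known, so its counts only describe these 12 genes. None of the 10 assimilation genes was in either class, and with 2.95% of all 15233 features with at least 60 reads higher and 2.44% lower in CK3 by this rule, a count of 0 of 10 is near the background. Leaving CK3 out changed the mean level of each of the 10 genes by a factor between 0.901 and 1.07.

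Together the 10 genes took 0.183% of the reads of CK1, 0.186% of CK2 and 0.186% of CK3. Their sum was 1851 ± 18.2 CPM (SD, n = 3), so the total differed little between libraries. Glutamine synthetase accounted for 70.5% ± 1.7 of these reads, nitrate reductase for 16.3% ± 0.612 and glutamate synthase for 9.82% ± 1.05 (SD, n = 3). Nitrite reductase took 1.83% ± 0.0646 and asparagine synthetase 1.52% ± 0.304 (SD, n = 3).

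Nitrate reductase was represented almost wholly by *NIA2*. *NIA2* (AT1G37130, chromosome 1, 14158452 to 14161938) had 276 CPM in CK1, 307 CPM in CK2 and 292 CPM in CK3, from 2243, 2269 and 1995 reads. *NIA1* (AT1G77760, chromosome 1, 29235721 to 29239484) had 13.3 CPM in CK1, 9.34 CPM in CK2 and 10.2 CPM in CK3, from only 108, 69 and 70 reads. The ranges of the 2 genes did not come near each other. *NIA2* took 95.4% of nitrate reductase reads in CK1, 97.0% in CK2 and 96.6% in CK3, and the exact binomial 95% intervals of these shares lay between 94.5% and 97.7%. These intervals hold for counting error alone, since reads of amplified cDNA can be copies of the same molecule. The log2 ratio of *NIA2* to *NIA1* was 4.75 ± 0.34 (SD, n = 3), or 4.73 per kb of transcript, and it was 4.71 without CK3. *NIA1* and *NIA2* have annotated transcripts of 3155 and 3205 nucleotides, so length hardly enters this comparison.

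*NIR1*, which encodes the only nitrite reductase of *Arabidopsis*, was low beside nitrate reductase and very even between libraries. *NIR1* (AT2G15620, chromosome 2, 6810395 to 6812941) had 34.0 CPM in CK1, 32.8 CPM in CK2 and 35.1 CPM in CK3, from 276, 242 and 240 reads. Its coefficient of variation (CV, the SD over the mean) was 3.46%, below the 6.30% that counting error alone gives on average at this depth. The summed nitrate reductase genes had 8.93 ± 0.637 times as many reads as *NIR1* (SD, n = 3), and per kb of transcript they were 6.11 ± 0.435 times as high. This order was the same in 3 of 3 libraries.

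*GS2*, the plastid glutamine synthetase, was the most abundant of the 10 genes in every library. *GS2* (AT5G35630, chromosome 5, 13830429 to 13833542) had 1082 CPM in CK1, 993 CPM in CK2 and 1083 CPM in CK3, from 7335 to 8785 reads, and it ranked 92, 101 and 94 among all features in CK1, CK2 and CK3. Among the cytosolic genes, the highest was *GLN1;2* (AT1G66200, chromosome 1, 24655115 to 24657703), known in roots as a low-affinity form induced by ammonium, which had 134 CPM in CK1, 154 CPM in CK2 and 149 CPM in CK3. *GLN1;1* (AT5G37600, chromosome 5, 14933286 to 14935885), a high-affinity form in roots, had 47.6 CPM in CK1, 74.1 CPM in CK2 and 50.9 CPM in CK3. *GLN1;3* (AT3G17820, chromosome 3, 6097201 to 6099595) had 43.8 CPM in CK1, 53.7 CPM in CK2 and 49.3 CPM in CK3. *GLN1;2* was thus above both other cytosolic genes in every library, whereas the values of those 2 overlapped.

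In reads, *GS2* exceeded the 3 cytosolic genes together in 3 of 3 libraries. Of the reads of *GS2* and these 3 genes, *GS2* held 82.7% in CK1, 77.9% in CK2 and 81.3% in CK3. The exact binomial 95% intervals were 82.0% to 83.5%, 77.1% to 78.7% and 80.5% to 82.1%. The plastid share was lowest in CK2, and the difference between the libraries was not tested. The mean share was 80.6% ± 2.48 (SD, n = 3) and 80.3% without CK3, and per kb of transcript *GS2* was 3.63 ± 0.556 times the cytosolic sum. *GLN1;2* had 2.98 ± 0.106 times the reads of *GLN1;3*, the steadiest ratio among the 3 cytosolic genes, and 2.61 ± 0.463 times those of *GLN1;1* (SD, n = 3). This last ratio was 2.82 in CK1 and 2.93 in CK3 against 2.08 in CK2, and the part that reads shared by this close pair have in it was not tested.

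**Figure D1:**
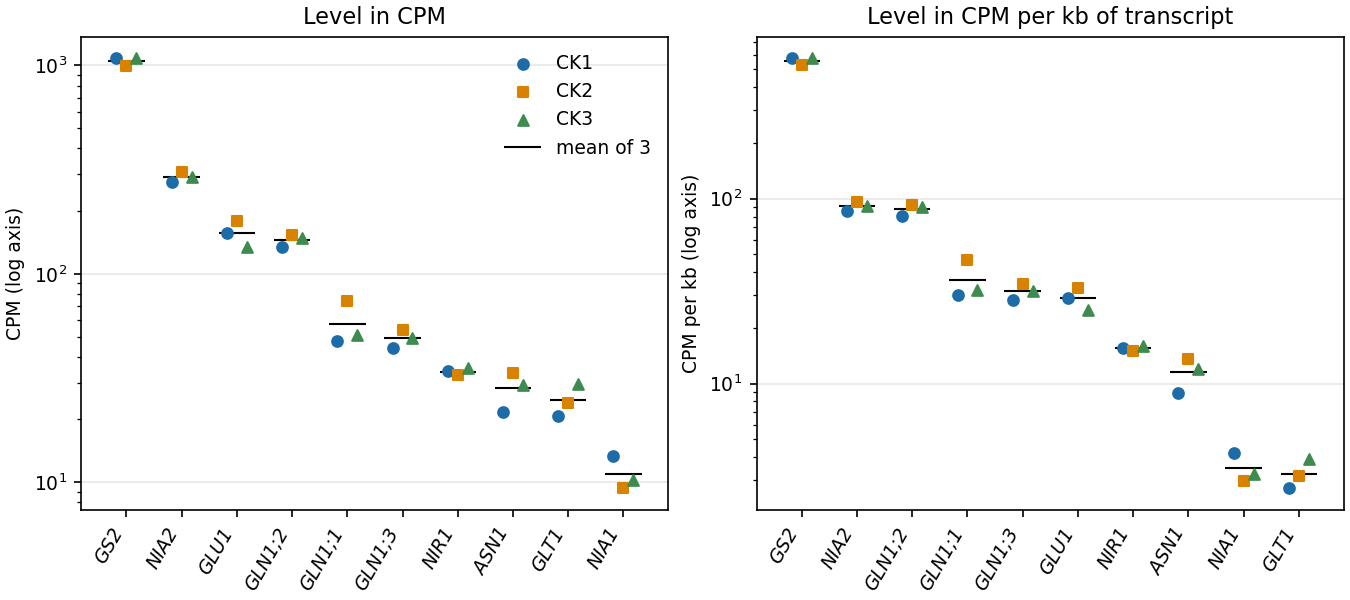
Level of each of the 10 genes in CK1, CK2 and CK3 (points) with the mean of the 3 libraries (short lines), in CPM on the left and in CPM per kb of annotated transcript on the right, both on log axes. *GS2* leads on both scales at 1053 CPM and 558 CPM per kb, while *GLU1*, at 157 CPM and 29.0 CPM per kb, is placed lower among the genes per kb than in CPM.

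Glutamate synthase reads came mainly from *GLU1*, which encodes a ferredoxin-dependent enzyme. *GLU1* (AT5G04140, chromosome 5, 1129785 to 1138488) had 157 CPM in CK1, 179 CPM in CK2 and 135 CPM in CK3, from 1278, 1323 and 921 reads. *GLT1* (AT5G53460, chromosome 5, 21700187 to 21710296), which encodes the NADH-dependent enzyme, had 20.7 CPM in CK1, 24.0 CPM in CK2 and 29.7 CPM in CK3. In CK3 *GLU1* was at its lowest and *GLT1* at its highest. The share of *GLU1* in the reads of these 2 genes was 81.9% there (exact binomial 95% interval 79.6% to 84.1%), against 88.4% in CK1 (86.6% to 90.0%) and 88.2% in CK2 (86.5% to 89.8%). *GLU2*, also a gene of a ferredoxin-dependent enzyme, was not counted in this share and had 84, 68 and 69 reads in CK1, CK2 and CK3. The intervals cover counting error only, and the difference between the libraries was not tested. The share without CK3 was 88.3%, and the log2 ratio of *GLU1* to *GLT1* was 2.91 without CK3 and 2.67 ± 0.42 with it (SD, n = 3). These 2 genes have long transcripts, of 5417 and 7625 nucleotides, and per kb the log2 ratio was 3.16 ± 0.42.

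*ASN1*, also known as *DARK INDUCIBLE 6* because sugar starvation and darkness raise its transcript, was among the lower of the 10 genes, although its mean was above that of 79.3% of all features. *ASN1* (AT3G47340, chromosome 3, 17437840 to 17441431) had 21.8 CPM in CK1, 33.3 CPM in CK2 and 29.4 CPM in CK3, from 177, 246 and 201 reads. Its paralogue *ASN2* was at 80.5 ± 10.2 CPM and *ASN3* at 4.22 ± 0.734 CPM (SD, n = 3), so that *ASN2*, known for a part in ammonium metabolism in light, held the most asparagine synthetase reads. Scaled to transcript length, *ASN1* had 11.5 ± 2.4 CPM per kb and *ASN2* had 36.2 ± 4.58 CPM per kb (SD, n = 3).

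**Figure D2:**
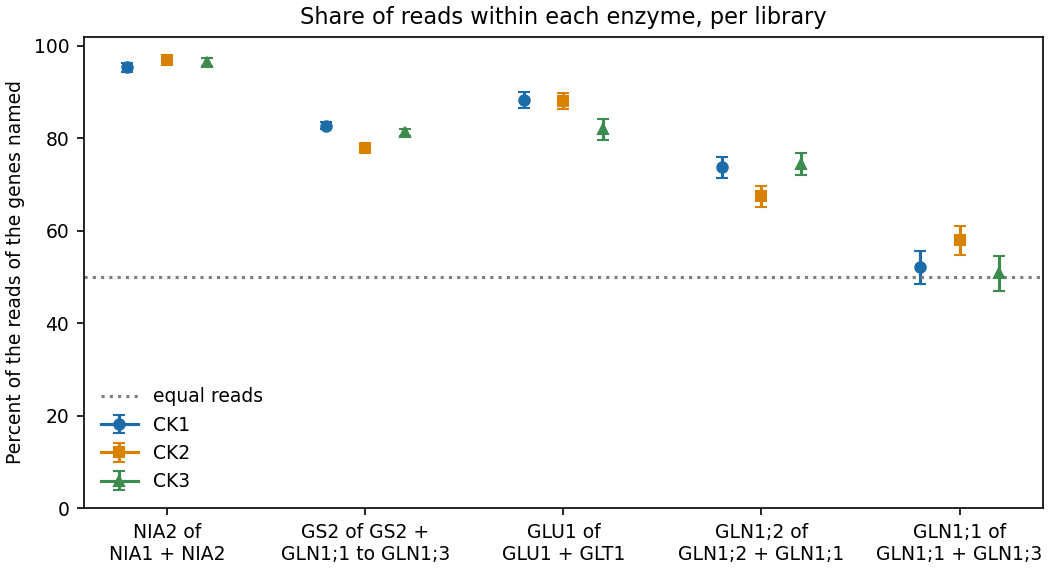
Percent of the reads of each named set of genes that fell on its first gene, in CK1, CK2 and CK3, with exact binomial 95% intervals as bars and equal reads as a dotted line. *NIA2* lies at 95.4% to 97.0%, *GLU1* is at 81.9% in CK3, and the intervals of the lowest set include the line of equal reads in CK1 and CK3.

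Levels of different genes were compared per kb of annotated transcript and, because a Nanopore read can cover a whole cDNA, also as reads. Where a read does cover a whole cDNA, dividing by length places genes with long transcripts, such as *GLU1* and *GLT1*, too low. How far long cDNAs were lost before counting was not tested, so neither order is free of transcript length. The means of the 10 genes spanned 96.0-fold in CPM and 172-fold in CPM per kb. In CPM per kb the order was *GS2* (558 ± 27.3), *NIA2* (91.0 ± 4.84), *GLN1;2* (87.8 ± 6.17), *GLN1;1* (36.2 ± 9.07), *GLN1;3* (31.5 ± 3.20), *GLU1* (29.0 ± 4.10), *NIR1* (15.5 ± 0.536), *ASN1* (11.5 ± 2.4), *NIA1* (3.47 ± 0.657) and *GLT1* (3.25 ± 0.599), with the SD over the 3 libraries. The ranges of neighbours overlapped for *NIA2* and *GLN1;2*, for *GLN1;1* and *GLN1;3*, for *GLN1;3* and *GLU1*, and for *NIA1* and *GLT1*. Within a library, *NIA2* was above *GLN1;2* per kb in 3 of 3, by a log2 difference of 0.05 ± 0.04 (SD, n = 3), and *GLN1;1* was above *GLN1;3* per kb in 3 of 3, by 0.18 ± 0.22. *GLN1;3* was above *GLU1* per kb in 2 of 3 libraries and *NIA1* above *GLT1* in 1 of 3. *GS2* stood 6.13-fold above *NIA2* per kb, and *NIR1* stood 1.86-fold below *GLU1* per kb, both without overlap. In CPM, *GLU1* followed *NIA2*, and its values overlapped those of *GLN1;2*, the next gene. In CPM the values of *GLN1;1* and *GLN1;3* overlapped as well, and so did *NIR1* and *ASN1*, and *ASN1* and *GLT1*. For the 7 ratios between genes or sums of genes that were computed, the exact permutation test by flipping signs (two-sided, 3 libraries) gave p = 0.25 each, and 0.25 after Benjamini-Hochberg adjustment, which is the smallest value that 3 libraries allow. Each of the 7 ratios was above 1 in 3 of 3 libraries. Whenever all 3 libraries share a direction, this exact permutation test returns that smallest value, whatever the size or spread of the ratios. The test therefore reflects only the shared direction here.

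All libraries belong to 1 condition, so differences between them were described by fold and not tested. In CK2 over CK1, 2 of the 10 genes were beyond 1.5-fold, both higher, where 11.6% of the 15233 features were beyond this fold in either direction, 8.21% higher and 3.35% lower. These were *GLN1;1*, at 1.55-fold, and *ASN1*, at 1.52-fold, which lie just past the threshold. Just short of it was *NIA1*, 1.4-fold lower in CK2. With median-of-ratios scaling *GLN1;1* was at 1.4998-fold and *ASN1* at 1.47-fold in CK2 over CK1, both just short of the threshold. In CK3 over CK1 none of the 10 was beyond 1.5-fold, against 12.9% of all features (9.47% higher and 3.39% lower), and *GLT1* came nearest at 1.43-fold. In CK3 over CK2 none was beyond it either, against 14.1% of all features (7.9% higher and 6.2% lower). *GLN1;1* came nearest in this comparison, 1.45-fold lower in CK3, and with median-of-ratios scaling it was just past the threshold, 1.5046-fold lower. The median log2 ratio in CK3 over CK1 was 0.09 for the 10 genes and 0.10 for all features, in CK3 over CK2 it was -0.06 and 0.05, and in CK2 over CK1 it was 0.19 and 0.06.

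**Figure D3:**
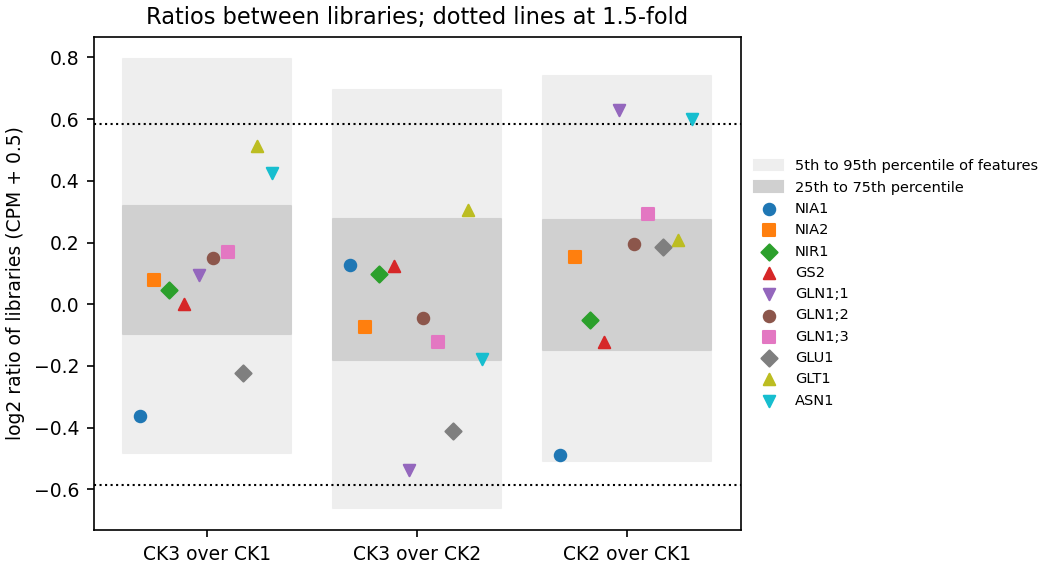
Log2 ratio of CPM plus 0.5 between each pair of libraries for each of the 10 genes (symbols), over the 25th to 75th and the 5th to 95th percentile of the 15233 features with at least 60 reads (dark and light bands), with dotted lines at 1.5-fold. Only *GLN1;1* and *ASN1* in CK2 over CK1 lie past a dotted line.

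Over all 3 libraries, 2 of the 10 genes had a highest value more than 1.5-fold above the lowest, where 24.5% of all features did. The median range was 1.27-fold for the 10 genes and 1.29-fold for all features. It was 1.25-fold for the 9407 features within the span of mean levels of the 10 genes. These differences were not tested. Set beside features within a factor of 2 of its own level, each gene showed where it stood. *NIR1* had a lower CV than all but 7.37% of 5101 such features, *GS2* with a CV of 4.89% than all but 10.5% of 133, and *NIA2* with 5.32% than all but 14.4% of 792. At the other end, *GLN1;1* with a CV of 25% was above 88.2% of 3467 such features, and *ASN1* with 20.8% was above 81.5% of 5627. *NIA1* had a CV of 18.9%, where counting error at its 69 to 108 reads alone gives 11.3% on average. In all, 5 genes were steadier than the median feature of like level and 5 less so.

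**Figure D4:**
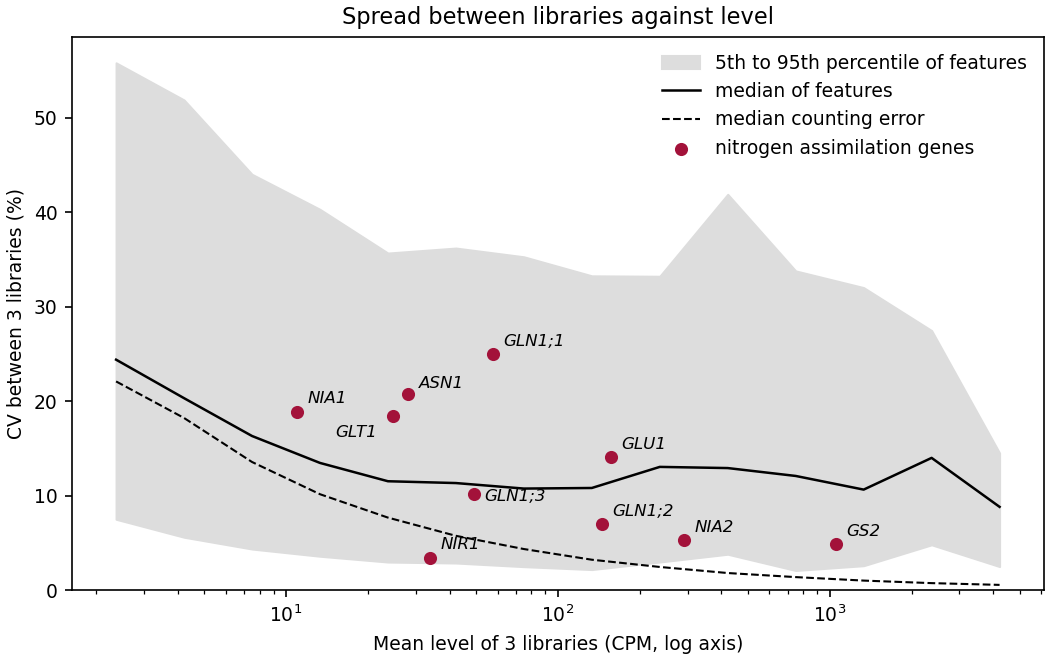
CV between the 3 libraries against mean CPM (log axis) for the 10 genes (red), with the 5th to 95th percentile (grey) and the median (solid line) of features with at least 60 reads and the median counting error (dashed line). *NIR1* at 3.46%, *GS2* at 4.89% and *NIA2* at 5.32% lie below the median line, and *GLN1;1* at 25% lies furthest above it.

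The 3 features most like *GLN1;1* in their pattern over the 3 libraries were *GolS2*, a galactinol synthase gene, at a distance of 0.01 on the log2 scale, *CYP704A2*, a cytochrome P450 gene, at 0.01, and the numbered locus ONT.11487 at 0.02. *GolS2* had 183 CPM in CK1, 282 CPM in CK2 and 194 CPM in CK3, so CK2 was its high library too. Likeness over only 3 libraries is weak, since 127 of 15232 features lay within a distance of 0.1, and none of these was another of the 10 genes.

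The remaining enzymes of the pathway ranged from abundant to barely detected. *GLN1;4*, a cytosolic glutamine synthetase gene, had 33, 42 and 14 reads in CK1, CK2 and CK3, and *GLN1;5* had 2, 1 and 3 reads, near the limit of detection. *GLU2*, the second ferredoxin-dependent glutamate synthase gene, was at 9.88 ± 0.597 CPM, below *GLU1* in 3 of 3 libraries. The glutamate dehydrogenase genes *GDH1* and *GDH2*, whose products can release ammonium from glutamate, were at 63.7 ± 7.96 and 50.2 ± 4.65 CPM (SD, n = 3), while *GDH3* had at most 9 reads. The highest of the 14 other assimilation genes was *ASP5*, a plastid aspartate aminotransferase gene, at 178 ± 17.9 CPM (SD, n = 3). Of these 14, 11 had at least 60 reads and 1 of the 11, *GLN1;4*, was beyond 1.5-fold between the highest and the lowest library, at 2.43-fold, against 24.5% of all features.

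Genes that supply cofactors and electrons to the reductases were examined as 2 lists. None of the 8 genes of molybdenum cofactor and siroheme synthesis, which provide the prosthetic groups of nitrate and nitrite reductase, was beyond 1.5-fold between libraries, against 24.5% of all features. *UPM1*, a siroheme synthesis gene, was the highest of them at 64.0 ± 8.71 CPM, and it also had the widest range, 1.26-fold. None of the 7 ferredoxin and ferredoxin reductase genes was beyond 1.5-fold. *FNR1*, a leaf ferredoxin reductase gene, was at 1062 ± 26.8 CPM, close to *GS2* in reads, and *FNR2* had the widest range, 1.46-fold. Of the 10 photorespiration genes none was beyond 1.5-fold either, and the highest, *SHM1*, a serine hydroxymethyltransferase gene, was at 1536 ± 191 CPM with the widest range, 1.27-fold (SD, n = 3).

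The counts beyond 1.5-fold among transport and signalling genes are read against the 24.5% of all features beyond it, and no difference between lists was tested. Of 14 nitrate transport genes, *NRT2.2* and *NRT2.4* were not among the listed features, 9 had at least 60 reads, and 4 of the 9 were beyond 1.5-fold. The highest was *NRT1.4*, a petiole nitrate transporter gene, at 97.9 ± 22.4 CPM, and the widest range was that of *NRT3.1*, which encodes the partner protein of the high-affinity transporters, at 2.33-fold. *NRT1.1*, the dual-affinity nitrate transporter and sensor, was at 51.5 ± 3.06 CPM, and *NRT2.1*, a high-affinity transporter mainly of roots, had 5, 7 and 5 reads. Of the ammonium transporter genes, *AMT1;1* led at 66.9 ± 19.6 CPM, *AMT1;2* had the widest range of 2.13-fold, and 2 of the 3 with at least 60 reads were beyond 1.5-fold. Of the 12 nitrate signalling genes with at least 60 reads, 5 were beyond 1.5-fold. *LBD37*, a repressor of nitrate-responsive genes, was the highest at 97.8 ± 21.7 CPM, and *BT2*, a nitrate- and sugar-responsive regulator, had the widest range, with 6 reads in CK1, 8 in CK2 and 159 in CK3. *BT2* reached 60 reads only through CK3, the library in which the clock genes also stood apart, and the part of the clock genes in this was not tested.

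**Figure D5:**
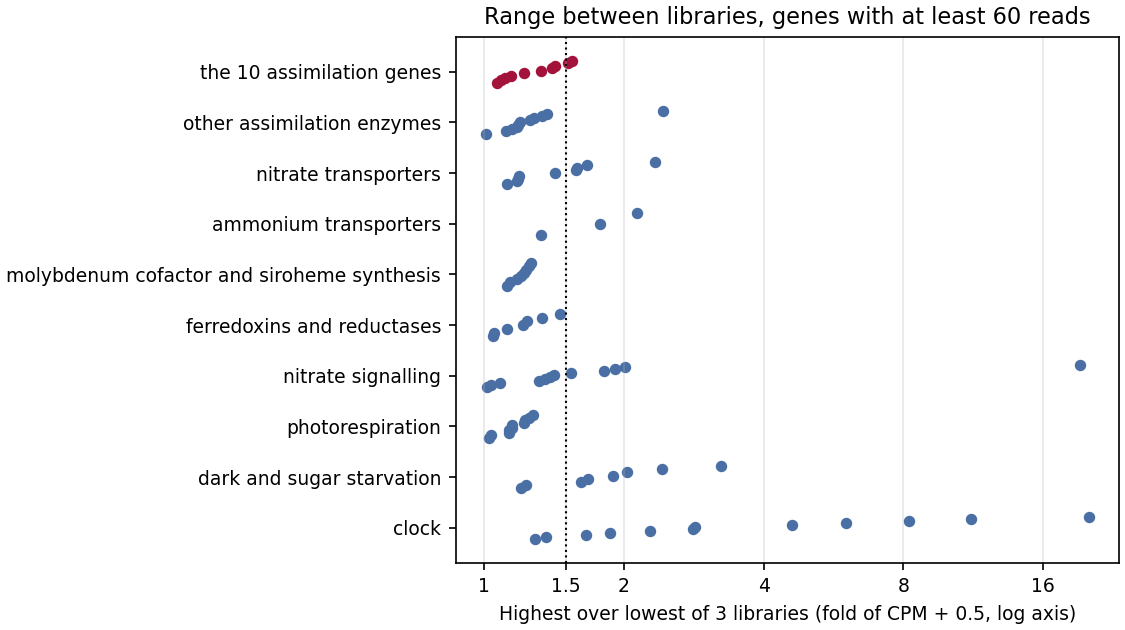
Highest over lowest of the 3 libraries, as fold of CPM plus 0.5 on a log axis, for each gene with at least 60 reads, by list, with a dotted line at 1.5-fold. The 10 assimilation genes lie between 1.07 and 1.55, and the widest ranges are those of *ELF4* at 20.02 in the clock list and *BT2* at 19.2 in nitrate signalling.

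Promoters were read as the 250 bases before the annotated start in TAIR10.1 and searched on both strands. The G-box CACGTG was in the promoter of 1 of the 10 genes, *ASN1*, from 167 to 162 bases before the start, and in 7.16% of 22292 promoters of listed genes. The evening element AAAATATCT, in 2.49% of all promoters, and the outer bases of the nitrate-responsive element, CTT and AAG set 10 bases apart, in 7.62%, were in none of the 10.

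The PacBio list groups transcripts by protein family (Pfam, families of shared domains) and gives no reads and no link between a PacBio locus and a gene, so only identifiers can be counted. All 10 genes are placed in the list, in 21 of its 4091 families, and these families hold 415 PacBio isoforms at 101 loci. The family with the most isoforms was the Rossmann-like NAD(P)-binding domain of *GLT1*, with 124 isoforms and 78 reference genes, so loci found in every family of an enzyme were counted as well. *NIA1* and *NIA2* are the only reference genes in all 5 families of nitrate reductase, and a lone PacBio locus, PB.1001, was in all 5, with 7 isoforms carrying every family and 19 carrying any. Nitrite reductase shares both of its families with the sulphite reductase gene AT5G04590, and 2 loci were found there, PB.11263 with 15 isoforms in both families and PB.4076 with 1. For glutamine synthetase, 6 reference genes and 4 PacBio loci were in both families, and PB.11978 held 12 of the 17 isoforms.

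For glutamate synthase, *GLU1*, *GLU2* and *GLT1* are the reference genes in all 4 families shared by the enzymes, and 2 loci were found, PB.11247 with 10 isoforms in all of them and PB.12439 with 1. *GLT1* is the only reference gene in the family of dihydropyrimidine dehydrogenase domain II, and the 4 isoforms of that family all come from PB.12439. For asparagine synthetase, *ASN1*, *ASN2* and *ASN3* are the reference genes in all 4 families, and 2 loci held 3 such isoforms. An isoform outside these families was not counted, and with 1 library none of these counts has a replicate error. The paper describes the PacBio library as size-fractionated cDNA, with an upper size limit. The longest annotated transcript of *GLT1*, of 7625 nucleotides, lies above that limit, and that of *GLU1*, of 5417 nucleotides, lies below it. How far the size selection lowered the isoform counts of long transcripts was not tested.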

How the data were processed

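Total RNA from aboveground parts was sequenced as 3 ONT Pc libraries and 1 PacBio library. For ONT Pc, the authors called bases (Guppy), polished reads into consensus isoforms (Racon), placed these on the genome (GMAP), estimated transcript counts (Salmon) and deposited CPM per gene. The submitters' processing notes name minimap2 and TAIR10, and the versions of minimap2, Racon, GMAP and Salmon are not given in the sources used here. The authors' PacBio list holds no measurement. Each deposited CPM column is whole reads times 1000000 over a divisor of 8122432 in CK1, 15508616 in CK2 and 22343645 in CK3. With a tolerance of 0.01 reads, 100% of values came out whole, and levels were rescaled to each library's own reads. No count test between groups was possible, because all libraries are of 1 condition.

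The members and gene lists were chosen with earlier results of these data known. Features with at least 60 reads in all were used for ratios between libraries, on log2 of CPM plus 0.5, with a threshold of 1.5-fold. Named genes were the 10 members, of each other list the highest gene and the gene with the widest range, genes of the same enzymes, and the 3 features nearest in pattern to the member with the widest range. *NRT1.1*, *NRT2.1* and *GDH1* to *GDH3* were named beyond this rule, after their values were seen. Lengths are those of the longest RefSeq transcript, and coding sequences were aligned with MAFFT. Other scalings, pseudocounts, minimum reads and left-out libraries were tried. The procedures were tested on simulated reads with known changes and with counting error alone. That test cannot show how they behave under the wider spread between the real libraries. Python 3.11.15, numpy 2.4.6, pandas 2.3.3 and scipy 1.17.1 were used.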

Additional observations from a re-analysis of the deposited data

How the results depend on the processing

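The share of reads on the 10 genes, 0.185%, became 0.110% with CPM as deposited, because the divisors of CK2 and CK3 exceed their reads, and 0.198% with the 3 most abundant features of each library taken out of the total. The log2 ratio of *GLU1* to *GLT1*, 2.67, became 3.16 per kb of transcript, because *GLT1* has the longer transcript. Genes beyond 1.5-fold numbered 10 in CK3 over CK1, 6 in CK3 over CK2 and 8 in CK2 over CK1 with CPM as deposited, again through the larger divisors, where 97.0%, 44.3% and 86.0% of all features were beyond it. With median-of-ratios scaling they numbered 1 in CK3 over CK2 and 0 in CK2 over CK1, and for CK3 over CK1 the number stayed at 0. Pseudocounts of 0.1 and 1, no minimum of reads, and a minimum of 300 reads left the numbers unchanged. They were 0 in CK3 over CK1, 0 in CK3 over CK2 and 2 in CK2 over CK1. Under these settings the share of all features beyond 1.5-fold in CK3 over CK1 ran from 9.43% (minimum of 300 reads) to 16.3% (no minimum). PacBio isoforms numbered 374 when loci needed at least 2 isoforms, against 415. Leaving out one library in turn gave 0.185% to 0.186% for the share, 4.60 to 4.94 for *NIA2* over *NIA1*, 1.97 to 2.19 for *GS2* over the cytosolic sum, and 2.54 to 2.91 for *GLU1* over *GLT1*, all on the log2 scale except the share. The alternatives for the other ratios were chosen after seeing the data. No paired analysis was possible because all 3 libraries belong to 1 group and no groups were compared, while the gene ratios were taken within each library. At 69 to 108 reads, *NIA1* is the gene whose values depth limits most.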

Other observations

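*ASN1* belongs to a set of genes raised by darkness and sugar starvation, and other genes of this set were examined beside it. This list was chosen with earlier results of these data known. Of 11 such genes, 8 had at least 60 reads, and 6 of the 8 were more than 1.5-fold higher in CK3 than in CK1, where 9.47% of all features were. *BCE2* and *BZIP53* were not. The genes below 60 reads did not rise in CK3. In CK1, CK2 and CK3, *DIN2* had 1, 0 and 0 reads, *DIN9* had 12, 9 and 9, and *DIN11* had 4, 5 and 4. Of the 6, *TPS9*, with 26, 33 and 39 reads, reached 60 reads only through CK3. *SEN1*, the highest of them and a marker of dark-induced senescence, had 411 reads in CK1, 582 in CK2 and 843 in CK3, and *DIN10*, with the widest range, had 158, 73 and 227. *ASN1* was 1.34-fold higher in CK3 than in CK1 and 1.13-fold lower in CK3 than in CK2, so it did not pass the threshold in either comparison. Of the 8 genes, 3 were higher in CK3 than in both other libraries by this fold, where 2.95% of all features were. With 1 library each, these are values without a test, and the clock genes that moved in the same library were not tested for a part in them.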
